A study of Delphinium anthriscifolium with 89 samples.

Results

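Transcript levels were followed for 200 features of *Delphinium anthriscifolium*, a larkspur of the buttercup family, that reach their highest level in the spurred dorsal petals at floral stage S16. They were taken from 32115 features by a rule on CPM, that is, estimated counts scaled to a common library total. The value of a group was the median CPM of its libraries plus 1, and the value of an organ was that of its highest stage. Of 1086 features whose highest value among 30 wild-type groups was that of dorsal petals at S16, 771 had a value of at least 6. A dorsal petal value at least 3 times that of lateral petals was found in 226 of these. A dorsal sepal value under 2 times the higher of the lateral and ventral sepal values left 215. The 200 with the largest dorsal to lateral petal ratio are the members described here. The rule therefore used every wild-type group, the S16 difference between the petal types and the peak at S16, and these values are given as descriptions with no test. The last member had a petal ratio of 3.25 and the first feature past the limit of 200 had 3.23. The lowest member value was 6.18, against 5.98 for the highest of 21 features that failed on the minimum value alone. The highest sepal ratio of a member was 2.00, against 2.02 for the nearest of 11 features that this condition left out.

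Larkspur flowers are bilaterally symmetric. A spurred dorsal sepal encloses the nested spurs of the dorsal petals, in which nectar is made and held for long-tongued visitors, while the lateral petals carry no spur and cover the stamens and carpels. Petals of this family are initiated as small primordia beside the stamens and do most of their growth, colouring and spur elongation late in bud development. The deposited IDs have the form of assembled transcripts with predicted reading frames and are not paired with gene names (they are printed here without the suffix that numbers the reading frame), so roles of single members are not given and lists of genes by name were not analysed here.

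The libraries were made from total RNA of wild-type organs, 3 for each of 7 floral organs at S10, S12 and S16 and 2 for each at S9, with 4 libraries of bracts and 4 of leaves. The floral organs were dorsal spurred petals, lateral non-spurred petals, dorsal spurred sepals, lateral non-spurred sepals, ventral non-spurred sepals, stamens and carpels. A further 2 libraries titled ans-lmi1 and 2 titled ans came from plants treated by virus-induced gene silencing, and their genotype labels name an LMI1 knockdown (LMI2 in replicate 2) for ans-lmi1 and ans for the other pair. Whether replicate libraries came from separate plants, and how many flowers were pooled, is not in the labels; the spread behind each p-value may therefore be technical.

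Library totals ran from 4201867 to 22100119 estimated counts. At S16 the 3 dorsal petal libraries held 18913319, 22100119 and 11606635 counts and the 3 lateral petal libraries 10587271, 11473161 and 5718070, so 3 counts amounted to between 0.136 and 0.258 CPM in dorsal petals and between 0.261 and 0.525 CPM in lateral petals. Fewer than 19000 features had a count in 21 libraries, among them replicate 3 of both petal types at S16 with 18190 features in the dorsal and 14692 in the lateral library. Replicate 3 of dorsal sepals, lateral sepals, ventral sepals, stamens and carpels at S16 was also among the 21. Organ labels were checked with features chosen without the petals for a level of at least 100 CPM in an organ and a value at least 10 times that of every other organ kind. The 441 stamen features, 3 of which are members, summed to 11650, 10925 and 12356 CPM in the dorsal petal libraries at S16 and to 7439, 7113 and 12214 CPM in the lateral ones, against 60213 to 235021 CPM in stamens. Of these, 216 were under 1 CPM in dorsal petals at S16 and 229 in lateral petals. By value, 51 of the 441 were at least 2-fold higher in dorsal than lateral petals at S16 and 68 at least 2-fold lower. The 3 members among them, which the rule chose for high dorsal levels, had dorsal medians of 666, 139 and 803 CPM there, against 7.93, 4.25 and 204 CPM in lateral petals. The 64 sepal features summed to 7141 to 10251 CPM in dorsal petals at S16, against 13297 to 18228 CPM in lateral petals, with 7 and 5 of them under 1 CPM. In sepals over all stages they summed to 2978 to 30449 CPM. Both petal types at S16 lay inside that range, so this set does not separate petals from sepals. The 11 carpel features summed to 53.2 to 82.5 CPM in dorsal petals at S16, against 109 to 153 CPM in lateral petals and 676 to 23628 CPM in carpels. No feature met the conditions for bracts or leaves. The part of other organs' RNA in the petal values was not tested.

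At S16 the members together took 6.79%, 6.05% and 5.64% of the 3 dorsal petal libraries, a mean of 6.16% ± 0.581 (SD, n = 3). They took 0.552%, 0.54% and 0.598% of the 3 lateral petal libraries, a mean of 0.563% ± 0.0302 (SD, n = 3). The groups did not overlap, and the same holds for replicates 1 and 2 alone, where both types had over 19000 features detected. The rule chose the members for this difference in these same libraries, so the outcome was largely set in advance and supports nothing. In tissue samples, more RNA per cell and more cells of the type that makes the RNA cannot be told apart. The median CPM of a member in dorsal petals at S16 ran from 5.18 to 9354, with a middle value of 51.2 and quartiles of 17.6 and 196 CPM, and was at least 10 CPM for 177 members and at least 100 CPM for 69. The sum was concentrated: the most abundant pair held 29.8% of the summed medians, the top 10 held 59.8% and the top 50 held 88.3%. In lateral petals at S16 the middle value was 2.44 CPM and the highest 985 CPM, and 65 members had a median under 1 CPM. For 15 members no lateral petal library at S16 held a count, and for 3 none of the 11 lateral petal libraries did.

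**Figure D1:**
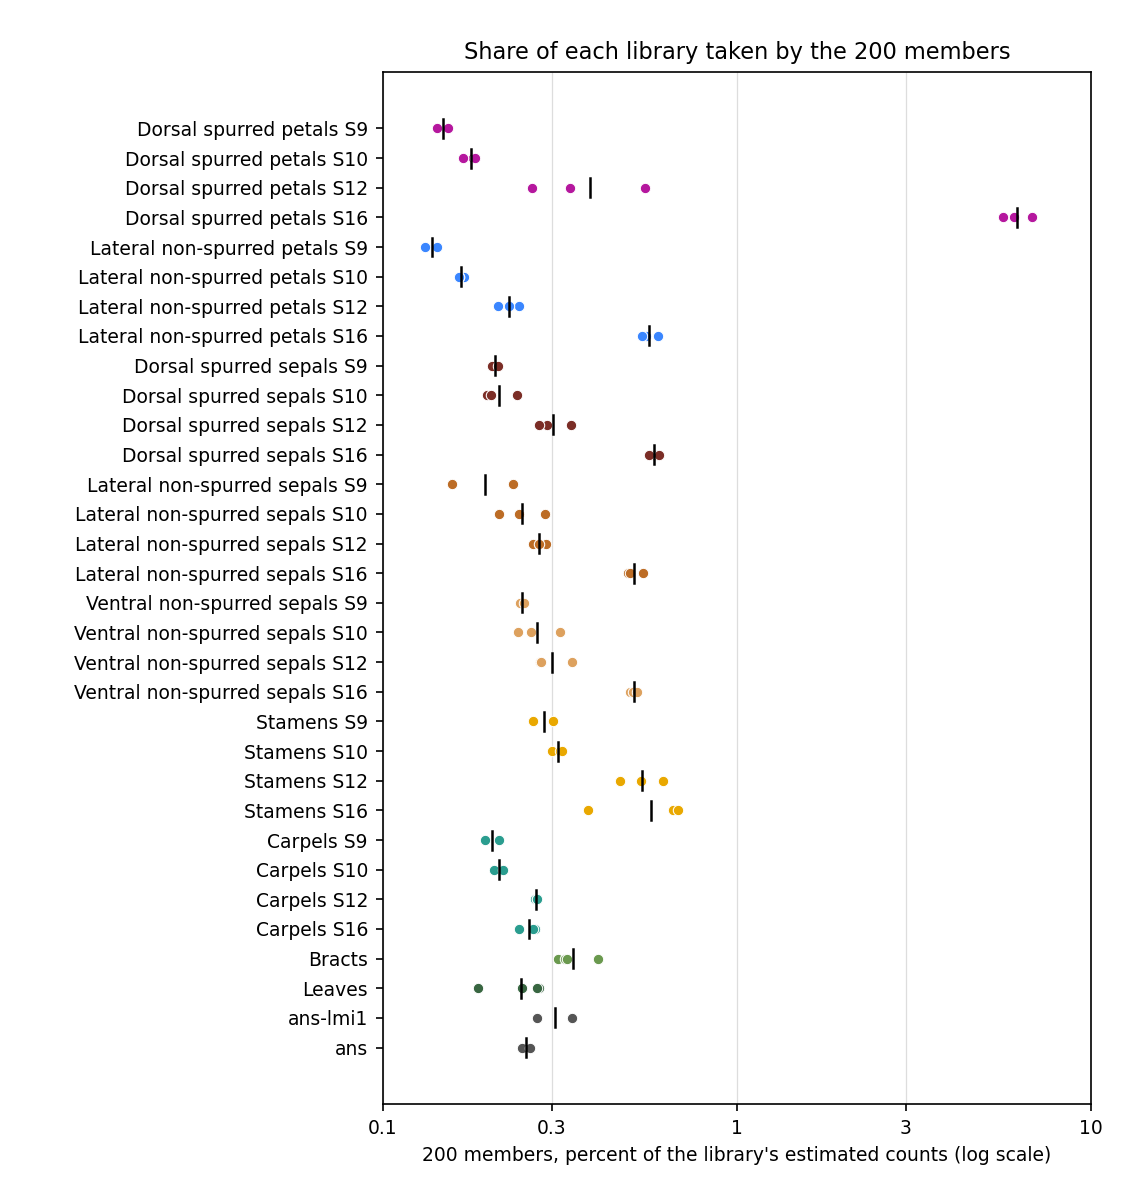
Share of each library's estimated counts taken by the 200 members, in percent on a log scale, for the 30 wild-type groups and the ans-lmi1 and ans groups. Each point is a library and each black bar a group mean; dorsal petals at S16 sit between 5.64% and 6.79% and every other library below 1%.

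Replicates of dorsal petals at S16 differed for some members. The ratio of the highest to the lowest library, on CPM + 1, had a median of 1.73 over the members, against 1.57 over the 13052 features with a value of at least 6 there. It was under 2 for 65.5% of members and 73.4% of those features, and 5 or more for 13 members. All 3 dorsal libraries lay above all 3 lateral libraries at S16 for 190 of 200 members and for 15.6% of the 13052 features, a difference that the rule largely sets, and the libraries overlapped for 10 members. In those 10 the lowest dorsal library was replicate 3 for 6 members and replicate 2 for 4. Replicate 3 held no count of 3 members, and the 10 members of highest median level summed to 25409 CPM in it, against 41597 CPM in replicate 1 and 37188 CPM in replicate 2. Without these 10 members its sum was 30969 CPM, above the 26255 and 23301 CPM of replicates 1 and 2.

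The member with the highest level, DN46823_c0_g2_i1, had 9354, 9696 and 3916 CPM in dorsal petals at S16, against 985, 1182 and 547 CPM in lateral petals at S16. Replicate 3 was the lowest library in both petal types. Its dorsal petal level over the stages averaged 9.77 ± 5.96 CPM at S9 (SD, n = 2), 9.92 ± 1.99 CPM at S10, 368 ± 344 CPM at S12 and 7655 ± 3243 CPM at S16 (SD, n = 3 each). The S12 libraries were 761, 127 and 215 CPM, so this average rests on replicate 1. The feature was also present late in the other flower organs: at S16 it averaged 436 ± 17.6 CPM in dorsal sepals, 416 ± 81.8 CPM in lateral sepals, 360 ± 12.8 CPM in ventral sepals, 565 ± 325 CPM in stamens and 152 ± 86.8 CPM in carpels (SD, n = 3 each). Bracts held 37.4 ± 11.7 CPM and leaves 20.8 ± 13.9 CPM (SD, n = 4 each). At S16 the stamen and lateral sepal libraries overlapped with those of the other sepal types, while dorsal sepals (421 to 456 CPM) lay above ventral sepals (349 to 374 CPM), a difference that was not tested.

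DN46620_c1_g5_i1, the next by level, had 12206, 8870 and 6417 CPM in dorsal petals at S16, against 104, 79.8 and 72.1 CPM in lateral petals at S16. Every dorsal library lay far above every lateral one. Its dorsal petal level averaged 10.9 ± 4.91 CPM at S9 (SD, n = 2), 50.2 ± 10.9 CPM at S10, 155 ± 162 CPM at S12 and 9164 ± 2905 CPM at S16 (SD, n = 3 each). Again replicate 1 was the high library at S12, with 342 CPM against 63.0 and 58.9 CPM in replicates 2 and 3. Outside petals this feature followed another order than the first. Each sepal type averaged below 30 CPM at S16, with 13.9 ± 6.69 CPM in dorsal, 6.92 ± 4.24 CPM in lateral and 26.7 ± 41.1 CPM in ventral sepals (SD, n = 3 each), the last resting on a single library at 74.1 CPM. Bracts held 417 ± 89.1 CPM (SD, n = 4), stamens at S12 417 ± 178 CPM (SD, n = 3) and carpels at S12 257 ± 62.4 CPM (SD, n = 3). The bract and stamen libraries overlapped, as did those of stamens and carpels.

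The members' share of a dorsal petal library averaged 0.148% at S9, 0.177% at S10, 0.385% at S12 and 6.16% at S16, against 0.138%, 0.166%, 0.228% and 0.563% in lateral petals at the same stages. The SD was at most 0.0153% in lateral petals before S16 and 0.15% in dorsal petals at S12, the widest among the petal groups before S16. Under 1 CPM in dorsal petals were 95 members at S9, 94 at S10 and 73 at S12, and 50 were under 1 CPM at all 3 stages. At the other end, 37 members already had at least 10 CPM at S9. The ratio of S16 to S12 in dorsal petals, on CPM + 1, had a median of 10.9 and ran from 1.40 to 526.3. It was at least 4 for 185 members, at least 10 for 104 and at least 50 for 28. Of the earlier stages, S12 was the highest for 114 members, S9 for 47 and S10 for 39.

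The median dorsal to lateral petal ratio of the members, on CPM + 1, was 1.00 at S9, 1.00 at S10, 1.12 at S12 and 8.61 at S16. The added 1 brings the ratio close to 1 for members near 0 CPM in both petal types. Each petal type held 3 counts or fewer over its libraries for 53 members at S9, 30 at S10 and 11 at S12. The early medians are therefore in part a lack of signal and do not show equal levels. A ratio of at least 2 was reached by 21 members at S9, 18 at S10 and 41 at S12, beside 3.25%, 2.76% and 2.52% of all 32115 features. The rule puts all 200 above 2 at S16. A dorsal to lateral ratio of at most 0.5 was reached by 7 members at S9, 9 at S10 and 3 at S12. These counts come from medians of 2 or 3 libraries and carry no test. The rule also bears on their balance: it holds the lateral petal value at every stage to at most the dorsal S16 value divided by 3, while dorsal petals at the earlier stages need only stay below the dorsal S16 value. The dorsal value exceeded the bound set on lateral petals for 3 members at S9, 2 at S10 and 7 at S12.

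**Figure D2:**
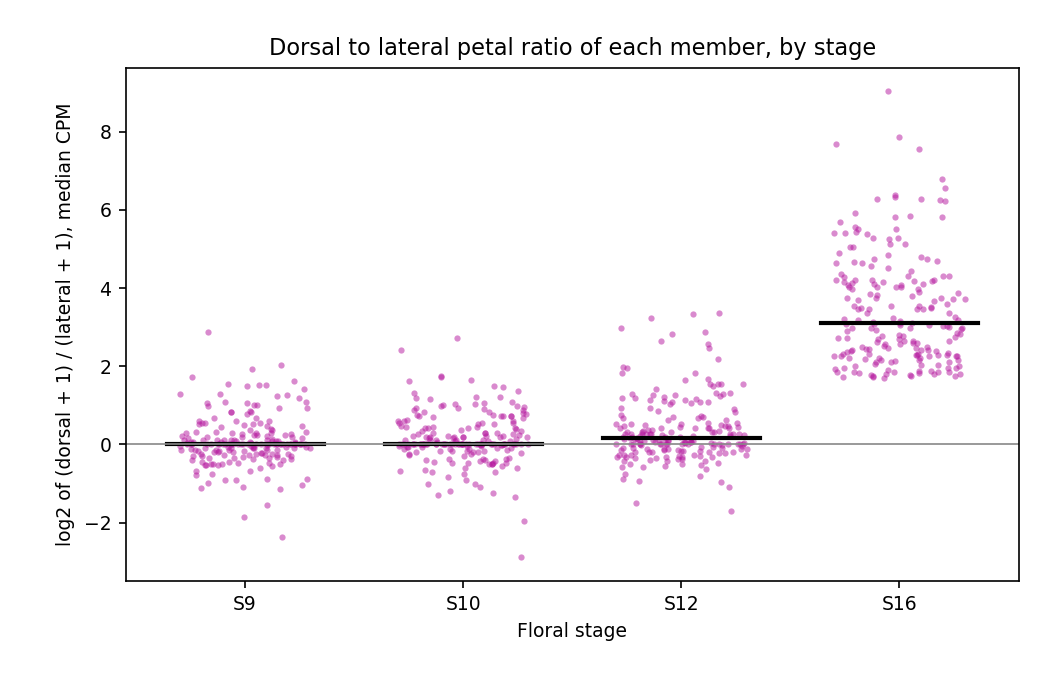
Dorsal to lateral petal ratio of the 200 members at each stage, on the log2 scale of median CPM + 1; each point is a member and the black bar the median. The medians correspond to ratios of 1.00 at S9, 1.00 at S10, 1.12 at S12 and 8.61 at S16, where the rule requires every member to be high. Before S16 many members lie near 0 CPM in both petal types, where the added 1 brings the ratio close to 1.

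Outside the dorsal petals the members were found at lower levels in every organ. The organ with the next highest value was stamens for 88 members, sepals for 58, bracts for 19, carpels for 16, lateral petals for 14 and leaves for 5. Stamens held this place for 44.0% of members, 29.6% of the 571 other features that peak in dorsal petals at S16 with a value of at least 6, and 27.6% of the 13052 features with such a value there. Lateral petals held it for 7.0%, 29.1% and 15.1% of the same sets; the rule's petal ratio bars lateral petals from coming close, so these shares are not independent of it. Dorsal petals at S16 stood above the next organ by a median ratio of 2.74, with a range of 1.03 to 82.9. The ratio was under 1.5 for 36 members and at least 10 for 19. For 5 members every other organ was under 1 CPM, while 51 had at least 1 CPM in all 26 groups outside dorsal petals.

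The 88 members with stamens next had a median of 56.3 CPM in dorsal petals at S16 and 18.7 CPM at their highest stamen stage. That stage was S9 for 17, S10 for 13, S12 for 37 and S16 for 21, so most of them did not peak at S16 in stamens. The 58 members with sepals next had a median of 40.8 CPM in dorsal petals at S16 and 14.7 CPM at their highest sepal group, which was an S16 group for 35 of them, against 14 at S9, 4 at S10 and 5 at S12. The 19 with bracts next stood at 41.1 CPM in dorsal petals at S16 and 20.6 CPM in bracts, and the 16 with carpels next at 32.3 and 12.4 CPM. The 14 with lateral petals next had 111 CPM in dorsal petals at S16 and 9.11 CPM in lateral petals, and for 11 of them the highest lateral stage was S16. Over the 159 members with a lateral petal value of at least 2, the highest lateral stage was S16 for 99, S12 for 29, S10 for 14 and S9 for 17.

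**Figure D3:**
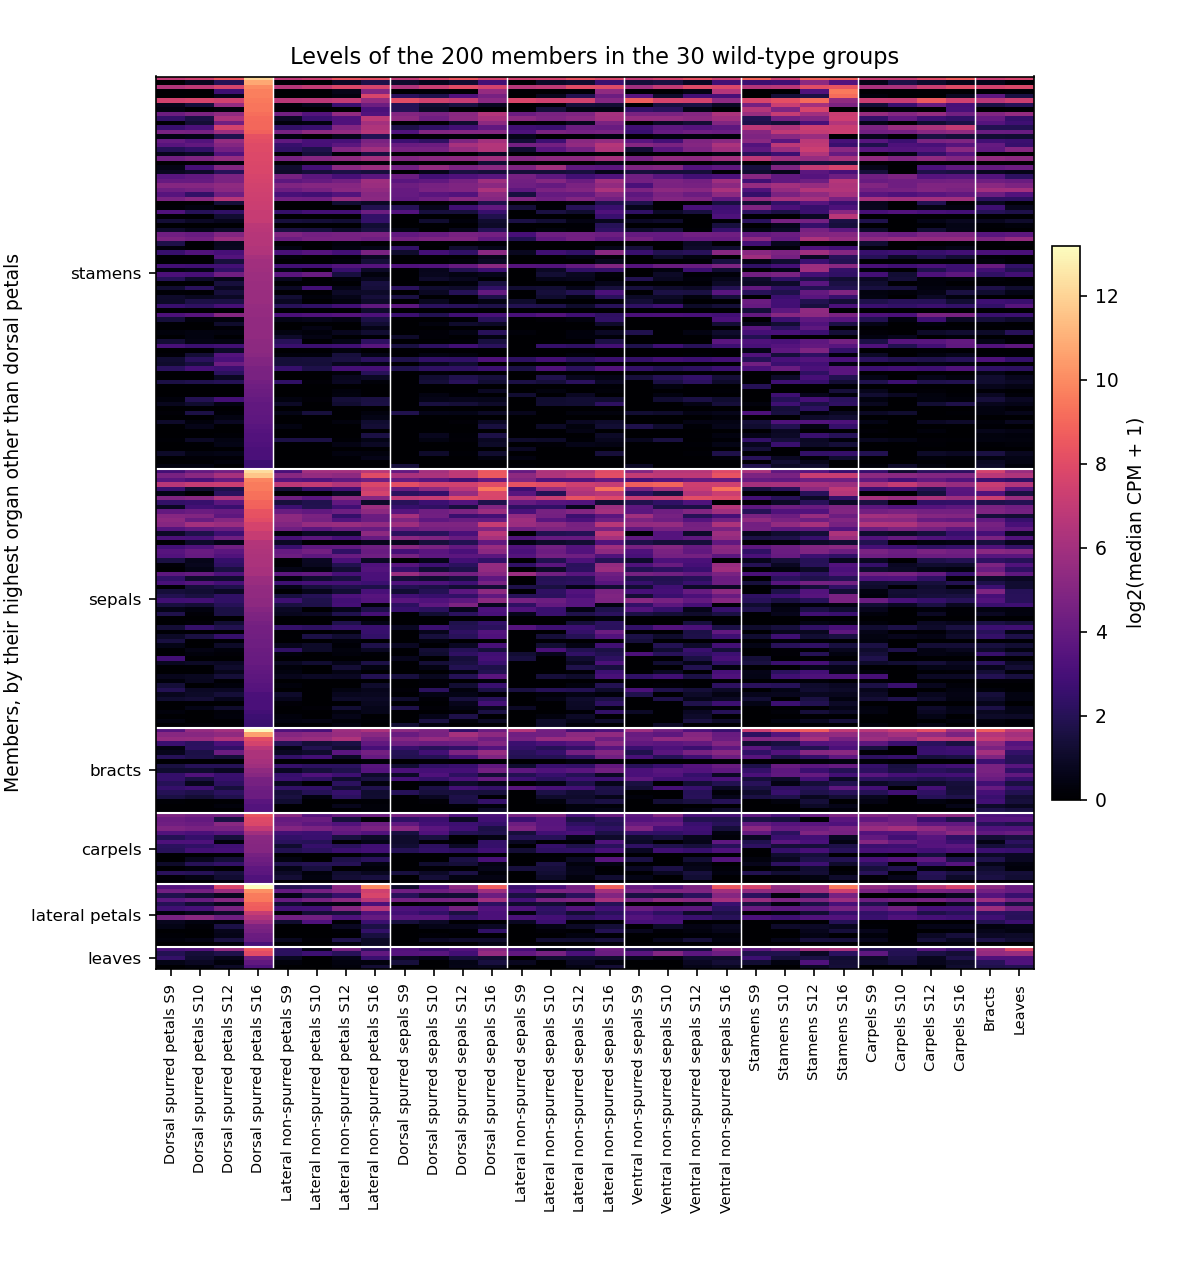
Levels of the 200 members (rows) in the 30 wild-type groups (columns), as log2 of the median CPM + 1, with rows grouped by the organ other than dorsal petals where the member is highest and ordered by dorsal S16 level. The bright column is dorsal petals at S16, which the rule fixes; the 88 rows with stamens next are brightest there in stamen columns spread over S9 to S16, and the 58 rows with sepals next mostly in the S16 sepal columns.

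The members lay in 192 assembly genes, the unit in which the assembly groups transcripts of a locus. Of the members, 153 were the sole feature of their assembly gene and 15 shared 7 assembly genes with another member, so these are not independent observations and estimated counts may be divided between them. The members' assembly genes held 57 further features, of which 25 had at least 1 CPM in a petal type at S16. Their dorsal to lateral ratio at S16 had a median of 2.13 and was at least 3 for 8, between 1 and 3 for 13 and at most 1 for 4. By assembly cluster, the wider unit that the first part of an ID names, 42 members fell into 17 clusters with more than 1 member. The cluster DN47011 held 6 members in 6 assembly genes, with 5.55 to 463 CPM in dorsal petals at S16 and 0 to 55.4 CPM in lateral petals at S16. The cluster DN37461 held 4, all with stamens next, with 12.8 to 61.2 CPM in dorsal petals at S16 and 0.436 to 1.92 CPM in lateral petals. Features of a cluster share sequence, so reads may have been divided among these members too.

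The comparison of petal types at S12 did not choose the members, but through the tighter bound on lateral petals the choice sets in part how many are higher and how many lower, here as at S9 and S10. By edgeR's quasi-likelihood test with Benjamini-Hochberg adjustment over all 21834 features, 15 of 200 members were higher in dorsal petals at S12 at an adjusted p under 0.05 and 0 were lower, beside 0.921% of all features called higher and 0.811% called lower. An unadjusted p under 0.05 was reached by 43 members and 1855 features. The median log2 fold change of dorsal over lateral petals was 0.50 over the members and 0.00 over all features, or 0.45 over the members where groups without counts are set to their bound. The members' median became 0.06 without dorsal replicate 1, 0.70 without dorsal replicate 2 and 0.75 without lateral replicate 2 of S12. All 200 members passed the filter on low counts because it ran over the 22 petal libraries, among them dorsal petals at S16, so the count and the median over 200 are a description and support nothing. In a fit of the S12 libraries alone 130 members passed it, of which 20 (15.4%) were called, 19 higher and 1 lower, beside 6.22% of 19093 features, with medians of 0.39 over these members and 0.01 over all features. Only 8 of these 20 were also among the 15 called in the fit of all petal libraries. Of the 15 members called in the fit of all petal libraries, 4 had a dorsal S12 value above the bound set on lateral petals and 11 did not. The log2 fold changes of the 15 ran from 1.24 to 5.79, and their median level in dorsal petals at S12 from 1.33 to 215 CPM. The member with the highest level, DN46823_c0_g2_i1, was among them, with a log2 fold change of 2.93.

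DN47206_c0_g3_i4 had 21.9, 1.36 and 9.94 CPM in dorsal petals at S12, against 0, 0.0867 and 0.499 CPM in lateral petals at S12. The groups did not overlap, although dorsal replicate 2 was close to the highest lateral library. Its log2 fold change was 5.79 ± 1.22 (SE), with an edgeR adjusted p of 0.019, which lay between 0.0105 and 0.107 over 12 alternatives and lost the call in 4 of them, among these the fits that leave out replicate 1 of dorsal petals and replicates 1 and 2 of lateral petals. DN40392_c0_g1_i4 had 23.3, 9.15 and 9.34 CPM in dorsal petals at S12, against 0, 0.78 and 0.0997 CPM in lateral petals at S12. Here every dorsal library lay above 9 CPM and every lateral one below 1 CPM. Its log2 fold change was 5.46 ± 0.88 (SE), with an edgeR adjusted p of 0.00208 that stayed between 9.87e-05 and 0.0243 over 12 alternatives.

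Dorsal replicate 1 stood ahead of the other dorsal libraries at S12. It was the highest of the 3 for 130 of the 200 members, against 27 for replicate 2 and 43 for replicate 3, and for all 15 members called. The members summed to 5520 CPM in it, against 2637 and 3380 CPM in replicates 2 and 3, while lateral petals at S12 held 2429, 2279 and 2122 CPM. The 2966 other features that rose in lateral petals between S12 and S16 took 16.1% of dorsal replicate 1, against 13.6% and 14.3% of replicates 2 and 3; their part in the result was not tested. Stamen features summed to 2738 to 5325 CPM in dorsal petals at S12, against 2617 to 7292 CPM in lateral petals. Without dorsal replicate 1 the count became 7 of 200 (3.5%), with 5 higher and 2 lower, beside 1.37% of all features. Without lateral replicates 1, 2 and 3 it became 8 (4%), 8 (4%) and 5 (2.5%), beside 0.814%, 0.946% and 0.787% of features. Without the 4 petal libraries under 19000 features, which include no library of S12, it became 32 of 200, with 30 higher and 2 lower, while the share of all features called became 5.53%.

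**Figure D4:**
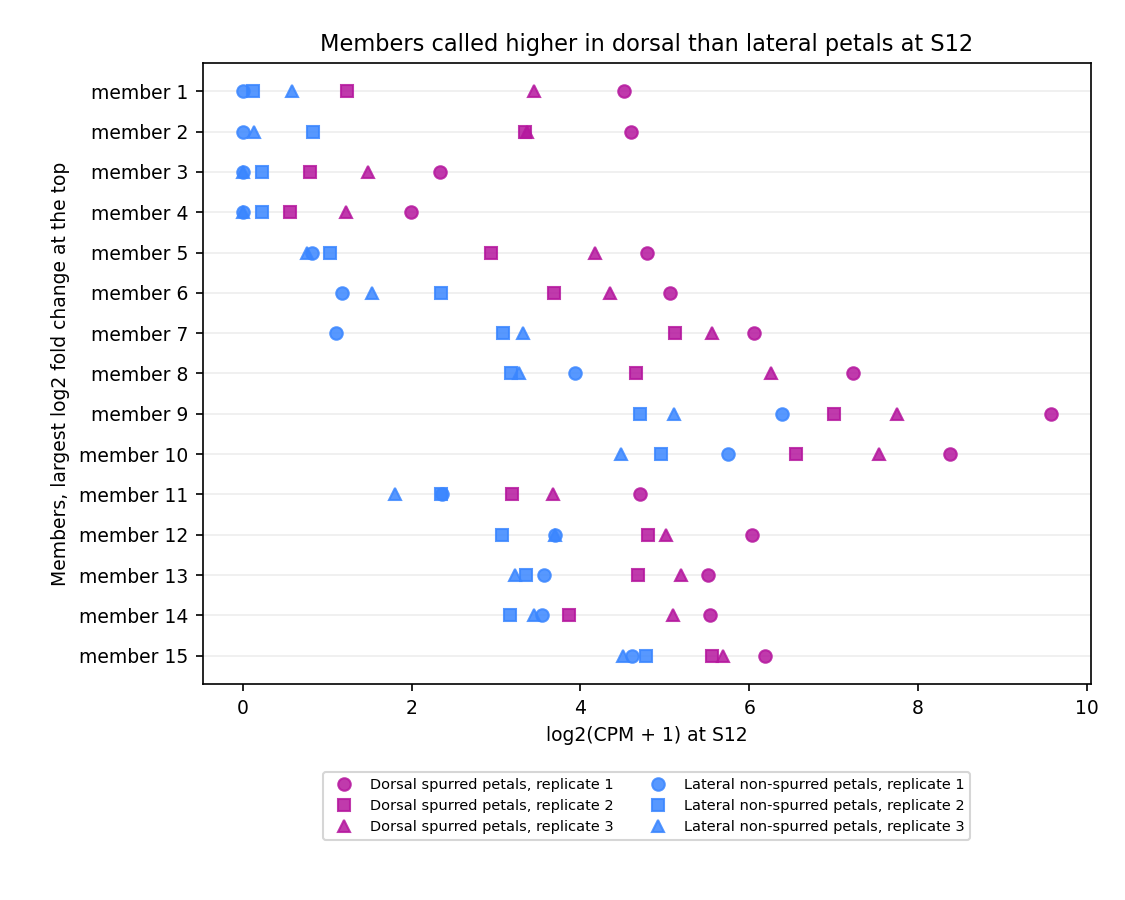
Levels in each petal library at S12 of the 15 members called higher in dorsal than lateral petals, as log2(CPM + 1), largest log2 fold change at the top. Filled symbols mark the 3 replicates of each petal type; dorsal replicate 1 (circles) is the highest library in all 15, and no dorsal library lies below a lateral one of the same member.

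At S10, 2 of 200 members were higher in dorsal petals and 0 lower, beside 0.234% of all features called higher and 0.33% called lower by edgeR. With the S10 libraries fitted alone 110 members passed the filter, of which 1 (0.909%) was called, in the direction of lateral petals, beside 1.13% of 18434 features. The count became 0 without dorsal replicate 2, lateral replicate 1 or lateral replicate 3, beside 0.281%, 0.349% and 0.44% of all features. It became 1 without dorsal replicate 1, beside 0.299%. The replicate numbers were taken to pair these libraries, since deviations of same-numbered libraries from their group means correlated (0.164 to 0.316). The labels themselves state no pairing. With the number as a block 6 of 200 members (3%) were called, 5 higher and 1 lower, beside 1.80% of 21834 features. DN42707_c0_g1_i1 had 33.8, 50.1 and 24.6 CPM in dorsal petals at S10, against 9.42, 15.2 and 11.3 CPM in lateral petals at S10, a log2 fold change of 1.64 ± 0.32 (SE) with an edgeR adjusted p of 0.0167 (8.12e-06 to 0.12 over 12 alternatives, called in 8). The groups did not overlap. DN44108_c1_g1_i10 had 9.36, 12.1 and 4.18 CPM in dorsal petals, against 0, 1.85 and 0.577 CPM in lateral petals, a log2 fold change of 3.58 ± 0.77 (SE) with an edgeR adjusted p of 0.0345 (3.64e-05 to 0.201 over 12 alternatives, called in 5). Its call was lost on leaving out replicate 1 or 2 of dorsal petals or replicate 1 or 3 of lateral petals. The median log2 fold change was 0.00 over the members and 0.04 over all features.

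At S9, with 2 libraries a group, edgeR called 0 members in either direction, beside 0.00% of all features, while 23 members and 1139 features were past an unadjusted p of 0.05. DESeq2 called 2 of 186 members (1.08%), beside 0.523% of 18359 features. Leaving out dorsal replicate 1 of S9 leaves 1 library in that group. The median log2 fold change was then 0.00 over the members and -0.12 over all features. The change of the dorsal minus lateral difference between S10 and S12 was called by edgeR for 0 members, beside 0.0321% of features in the direction of dorsal petals and 0.0137% in the other. In that comparison 30 members and 999 features were past an unadjusted p of 0.05. DESeq2 called 8 of 196 members (4.08%), beside 0.580% of 21728 features. The median change by edgeR was 0.36 on the log2 scale over the members and -0.02 over all features. The members' median became -0.02 without dorsal S12 replicate 1, 0.16 without lateral S10 replicate 2 and 0.22 without lateral S10 replicate 3. The S12 difference is thus not shown to be larger than that at S10 for any member by the edgeR fit of all petal libraries.

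The order of stages in lateral petals was not used by the rule, which sets an upper bound on their highest stage. Between S12 and S16, 77 of 200 members rose in lateral petals and 10 fell by edgeR's test, beside 13.9% of all features called higher and 18.1% called lower. The median log2 fold change of S16 over S12 was 1.39 over the members and -0.19 over all features. As at S12, all 200 were tested because the filter took in dorsal petals at S16. In a fit of the 6 lateral petal libraries alone 134 members passed it, of which 63 (47.0%) were called, 58 higher and 5 lower, beside 29.8% of 18503 features, with medians of 1.39 and -0.13. The members' sum was 5523, 5404 and 5976 CPM at S16, against 2429, 2279 and 2122 CPM at S12, without overlap. On all 200 members, the median CPM + 1 was at least 2-fold higher at S16 for 67 and at least 2-fold lower for 15, beside 7.45% and 19.0% of all features.

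DN41800_c1_g1_i1 had 190, 179 and 895 CPM in lateral petals at S16, against 1.54, 0.867 and 0.698 CPM at S12, a log2 fold change of 8.88 ± 0.80 (SE) with an edgeR adjusted p of 2.36e-07. Replicate 3 of S16, the library with 14692 features detected, was the high one. Another feature of its assembly gene, DN41800_c1_g1_i2, had medians of 383 CPM in dorsal and 548 CPM in lateral petals at S16. Estimated counts may be divided between these features. DN38738_c0_g2_i1 had 204, 179 and 354 CPM at S16, against 1.54, 0.173 and 0.299 CPM at S12, a log2 fold change of 8.81 ± 0.82 (SE) with an edgeR adjusted p of 1.38e-06. This member is also among the 441 stamen features, which summed to 7113 to 12214 CPM in lateral petals at S16, against 2617 to 7292 CPM at S12; their part in this rise was not tested. Both calls held in 12 of 12 alternatives.

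Among the 10 that fell in lateral petals, DN35724_c0_g2_i1 had 0.189, 0.349 and 0 CPM at S16, against 4.13, 13.2 and 6.78 CPM at S12, a log2 fold change of -4.80 ± 0.97 (SE) with an edgeR adjusted p of 0.00059. DN37783_c0_g1_i1 had 0.85, 1.57 and 0 CPM at S16, against 12.1, 7.54 and 7.38 CPM at S12, a log2 fold change of -2.92 ± 0.78 (SE) with an edgeR adjusted p of 0.0068, lost (0.0811) when the compared groups alone share the spread. In both, each S12 library lay above each S16 library, while dorsal petals had their highest level at S16 as the rule requires. Sepal features summed to 13297 to 18228 CPM in lateral petals at S16, against 2861 to 4188 CPM at S12; their part in these falls was not tested.

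In non-spurred sepals, taken as the mean of lateral and ventral sepals, 176 members passed the filter on low counts. Of these, 41 (23.3%) rose between S12 and S16 and 5 (2.84%) fell by edgeR's test, beside 9.52% and 14.8% of 21673 features. The median log2 fold change was 1.00 over the members tested and -0.24 over all features. In dorsal sepals 16 of 176 (9.09%) rose and 1 (0.568%) fell, beside 4.38% and 5.22% of features, with a median of 1.38 over the members tested and -0.07 over all. On all 200 members, at least 2-fold higher at S16 were 79 in dorsal sepals, 69 in lateral sepals and 59 in ventral sepals, against 9, 10 and 24 at least 2-fold lower. Of all features 7.31%, 7.07% and 6.24% were at least 2-fold higher in dorsal, lateral and ventral sepals, against 12.4%, 14.2% and 16.05% at least 2-fold lower. The members' sum averaged 5850 ± 183 CPM in dorsal sepals at S16 against 3029 ± 331 CPM at S12, 5120 ± 262 against 2771 ± 124 CPM in lateral sepals and 5110 ± 119 against 3002 ± 370 CPM in ventral sepals (SD, n = 3 each). Without the libraries under 19000 features 84 of 174 members (48.3%) were called in non-spurred sepals, 75 higher and 9 lower, beside 44.3% of features, and 47 of 174 (27.0%) in dorsal sepals, 44 higher and 3 lower, beside 21.7% of features. Same-numbered libraries of lateral and ventral sepals deviated together within S12 and within S16. The 6 non-spurred libraries of a stage are therefore not 6 independent samples. With the replicate number as a block 45 of 176 members (25.6%) were called, 40 higher and 5 lower, beside 24.6% of features. The share called in both directions together was thus near that of all features. Leaving out replicate 2 of dorsal sepals at S12 gave 7 of 176 called members in dorsal sepals (3.98%), 6 higher and 1 lower, beside 6.65% of features. Leaving out replicate 3 gave 10 of 176 (5.68%), 9 higher and 1 lower, beside 7.45% of features.

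Of the 77 members that rose in lateral petals and the 41 that rose in non-spurred sepals, 30 were common, which is 39.0% of the first list and 73.2% of the other, beside 49.3% and 72.7% of the 3043 and 2064 features that rose in the same comparisons. Of the 16 that rose in dorsal sepals, 13 (81.2%) also rose in non-spurred sepals, which is 31.7% of that list, beside 94.7% and 43.6% over all features.

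DN51799_c0_g1_i1 rose in both sepal comparisons. In dorsal sepals it had 36.7, 66.7 and 44.7 CPM at S16, against 0.584, 0 and 0 CPM at S12, with a log2 fold change of 8.05 ± 1.30 (SE) and an edgeR adjusted p of 0.000134. In the 6 non-spurred sepal libraries of S16 it ran from 33.2 to 122 CPM, against 0 to 0.746 CPM in the 6 at S12. The log2 fold change was 8.32 ± 0.92 (SE) with an edgeR adjusted p of 1.45e-07. Ventral sepals at S16 (88.3, 122 and 89.8 CPM) lay above lateral sepals at S16 (41.0, 44.5 and 33.2 CPM), a difference that was not tested. DN46227_c1_g5_i1 ran from 0.948 to 21.2 CPM in the 6 non-spurred sepal libraries of S16, against 0 to 0.536 CPM at S12, with an edgeR adjusted p of 0.000598, and the highest values at S16 were 10.8 and 21.2 CPM in replicate 3 of lateral and ventral sepals, libraries with 16147 and 9926 features detected. DN36192_c0_g3_i1 had 1.77, 3.32 and 2.36 CPM in dorsal sepals at S16 and no count at S12, at least 22.4-fold higher with the S12 group set to a floor of 3 counts in all. Its edgeR adjusted p of 0.0353 lay between 0.00457 and 0.132 over 12 alternatives and lost the call on leaving out any of the 6 libraries.

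The same feature that fell in lateral petals, DN35724_c0_g2_i1, fell in both sepal comparisons. It had 0.682, 0.554 and 2.21 CPM in dorsal sepals at S16, against 21.4, 25.8 and 49.2 CPM at S12, a log2 fold change of -4.63 ± 1.08 (SE) with an edgeR adjusted p of 0.00414. In non-spurred sepals it ran from 0 to 0.469 CPM at S16, against 6.55 to 20.05 CPM at S12, a log2 fold change of -5.89 ± 0.85 (SE) with an edgeR adjusted p of 3.36e-06. Both calls held in the alternatives run, 12 in dorsal and 18 in non-spurred sepals. A member of the same assembly cluster, DN35724_c0_g1_i1, had 1 count in the 6 non-spurred sepal libraries of S16, against 60 counts at S12. The level at S12 was 56.0 times that at S16, with a 95% counting interval of 9.68 to 2249, and the edgeR adjusted p was 0.0204 (0.00247 to 0.053 over 18 alternatives, called in 16).

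In stamens 181 members passed the filter. Of these, 7 (3.87%) rose between S12 and S16 and 10 (5.52%) fell by edgeR's test, beside 4.14% and 7.57% of 21660 features, so the members' shares were near those of all features. The median log2 fold change was -0.04 over the members tested and -0.28 over all features. The members' sum was 6621, 6806 and 3791 CPM at S16, against 6194, 5350 and 4671 CPM at S12, and the groups overlapped. The low library was replicate 3 of S16, in which 11345 features and 77 members were detected. Without the libraries under 19000 features 71 of 191 members (37.2%) were called, 38 higher and 33 lower, beside 35.99% of features.

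DN38738_c0_g2_i1 had 556, 516 and 671 CPM in stamens at S16, against 2.04, 0.426 and 5.50 CPM at S12, a log2 fold change of 7.96 ± 1.08 (SE) with an edgeR adjusted p of 4.99e-05. Its dorsal petal median at S16 was 803 CPM. DN45621_c3_g4_i1 had 1.61, 2.96 and 11.1 CPM in stamens at S16 and no count at S12, at least 37.4-fold higher against the floor of 3 counts over the group, with an edgeR adjusted p of 0.0329 (0.0145 to 0.113 over 12 alternatives, called in 5, and lost without stamen replicate 1, 2 or 3 of S12 or replicate 2 or 3 of S16). DN44769_c1_g5_i1 had no count in stamens at S16, against 12.4, 14.8 and 11.7 CPM at S12, at least 108-fold lower at S16, with an edgeR adjusted p of 0.0119 that became 0.0508 without stamen replicate 2 of S16. DN37840_c0_g1_i3 had 0.201, 0 and 0 CPM in stamens at S16, from 2 counts, against 236, 201 and 181 CPM at S12. Its level at S12 was 2617 times that at S16, with a 95% counting interval of 724 to 21613, and the edgeR adjusted p was 3.99e-06. This member and DN38738 are among the 441 stamen features by their highest stamen stage.

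In carpels 1 of 181 members (0.552%) rose between S12 and S16 and 0 fell by edgeR's test, beside 0.0646% and 0.0139% of features, while 13 members and 1020 features were past an unadjusted p of 0.05. DESeq2 called 5 of 181 members (2.76%), beside 1.05% of features. The single member called by edgeR was again DN37840_c0_g1_i3, with 6.01, 9.86 and 7.33 CPM at S16 and no count at S12, at least 78.6-fold higher against the floor of 3 counts over the group. Its edgeR adjusted p of 0.0097 (9.15e-08 to 0.0814 over 12 alternatives) was lost without any 1 of the 3 S12 libraries. The feature thus fell in stamens and rose in carpels, while its dorsal petal median at S16 was 666 CPM and its lateral petal median 7.93 CPM. Tested as an interaction, the change in stamens was called above that in carpels for 1 member and below it for 6, beside 1.49% and 3.55% of features, a comparison added after the data had been seen. Without the libraries under 19000 features 9 of 191 members (4.71%) were called in carpels, 6 higher and 3 lower, beside 3.56% of features. The members' sum in carpels averaged 2593 ± 147 CPM at S16, against 2717 ± 19.5 CPM at S12 (SD, n = 3 each).

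**Figure D5:**
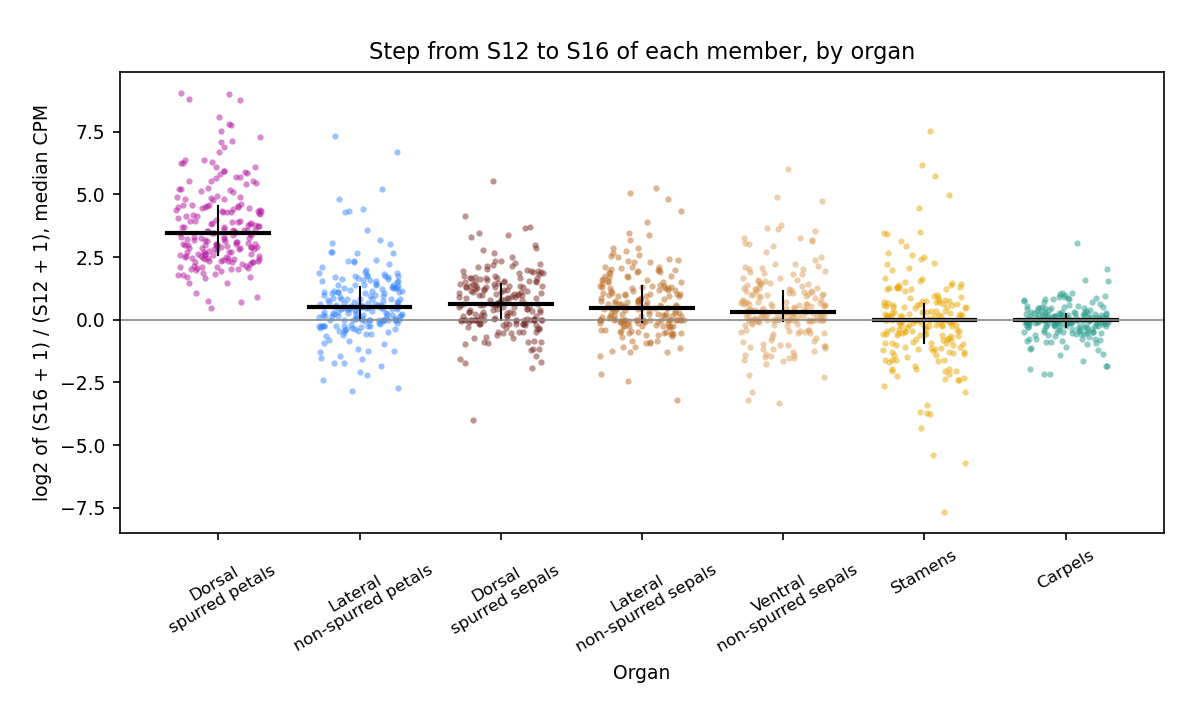
Change of each member between S12 and S16 in 7 floral organs, as log2 of the ratio of median CPM + 1; each point is a member, the horizontal bar the median and the vertical line the interquartile range. The dorsal petal change is fixed in direction by the rule (median ratio 10.9); the medians correspond to ratios of 1.42 in lateral petals, 1.54, 1.38 and 1.25 in dorsal, lateral and ventral sepals, 0.987 in stamens and 1.00 in carpels.

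The silencing libraries took no part in the choice of members. The labels name lateral non-spurred sepals as their tissue, the series' design names petals at stage 12, and the column headers of the ans files name them mock. The sepal features summed to 3757 to 5061 CPM in the ans-lmi1 libraries and 4176 to 4632 CPM in the ans libraries, against 10293 to 12824 CPM in lateral sepals at S12, 2861 to 4188 CPM in lateral petals at S12 and 1618 to 2518 CPM in dorsal petals at S12. The gene LMI1, which encodes a homeodomain transcription factor in Arabidopsis, could not be checked for its own level, since the IDs carry no names, so the silencing itself is taken from the labels. The members summed to 3429 and 2722 CPM in ans-lmi1 libraries, against 2476 and 2601 CPM in ans libraries, without overlap. Without the 10 members of highest median level in dorsal petals at S16 the sums were 2107 and 1446 CPM, against 1455 and 1381 CPM, and overlapped. The 2 against 2 libraries of these sums carry no test.

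Of the 200 members, 135 passed the filter in the silencing fit. EdgeR called 0 of them in either direction, beside 0.00% of 18757 features, while 14 members and 1373 features were past an unadjusted p of 0.05. DESeq2 called 4 of 128 members (3.1%), 3 higher and 1 lower, beside 0.696% of 18393 features. In the edgeR fit the median log2 fold change of ans-lmi1 over ans was 0.20 over the members tested and 0.01 over all features. The 2 most abundant members overlapped between the groups: DN46823_c0_g2_i1 had 272 and 71.2 CPM in ans-lmi1 libraries, against 79.0 and 183 CPM in ans libraries. DN46620_c1_g5_i1 had 26.7 and 159 CPM in ans-lmi1 libraries, against 15.7 and 41.4 CPM in ans libraries.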

How the data were processed

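Total RNA was extracted with a plant RNA kit and turned into libraries with an RNA-seq preparation kit, per the labels' protocols. TopHat2 and RSEM appear in the submitters' processing notes with no version or role. Reference, strandedness and read filters: not given in the sources used here. Each deposited file holds estimated counts of its features without normalization. Of 32115 features, 3825 were at 0 in every library after rounding.

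The members and lists were chosen with earlier results of these data known. CPM values use the column total. Rounded counts were tested with edgeR 4.0.16 in R 4.3.3 (quasi-likelihood, robust, TMM, filterByExpr, calls at an adjusted p under 0.05 after Benjamini-Hochberg) in 22 petal, 33 sepal, 22 stamen and carpel, and 4 silencing libraries, fitted separately and tested on simulated data. An SE is the log2 fold change divided by the square root of F. Named features were the 2 with the highest dorsal S16 median and, per comparison, up to 2 called with the largest positive and negative log2 fold change and no overlap of groups. Planned gene lists by symbol could not be applied. Alternatives were DESeq2 1.42.0, RLE scaling, no filter, a replicate block, the compared groups alone sharing the spread, leaving out replicates, and leaving out libraries under 19000 features. Replicate numbers were taken to pair libraries of a stage where all deviations from group means correlated above 0.1. These were petal types at S10 (0.164 to 0.316) and S16 (0.2 to 0.351), and lateral and ventral sepals at S12 (0.483 to 0.551) and S16 (0.163 to 0.268). Above 0.1 across stages were lateral sepals at S16 against lateral (0.108 to 0.31) and ventral sepals (0.168 to 0.33) at S12. The ans-lmi1 and ans libraries also lay above 0.1, at 0.12 for each replicate number. With 2 libraries a group the deviations mirror each other, so this is a single value that must repeat. Counting intervals and floors of 3 counts cover counting error only.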

Additional observations from a re-analysis of the deposited data

Results flagged for a closer look

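DN46620_c1_g5_i1, the member of second-highest level, had 305 CPM in a single leaf library, while the other 3 lay at or below 121 CPM. The gap of that library to its nearest neighbour was 0.902 of the range of the 4 leaf libraries, above Dixon's critical value of 0.829. Chance flags about 1 in 20 such groups, and 6 groups were examined.

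DN37840_c0_g1_i3 fell between S12 and S16 in stamens and rose in carpels, and the difference of these changes was tested as an interaction after the data had been seen. The fitted value of stamens minus carpels was -19.87 on the log2 scale with an edgeR adjusted p of 1.593e-06; since carpels at S12 held no count, its size depends on the constant added in fitting and is no estimate of a fold. In that comparison 7 of 181 members were called. The change in stamens was above that in carpels for 1 (0.55%) and below it for 6 (3.3%), beside 1.49% and 3.55% of all features.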

How the results depend on the processing

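Of 264 refits of the 20 results for named members, 228 kept direction and call, 36 lost the call and 0 reversed; 96 of 136 refitted counts stayed within 1.5 times. DESeq2 gave 24 called members in petals at S12, 6 at S10, 2 at S9, 8 for the change between S10 and S12, 28 in stamens, 5 in carpels, 29 in dorsal sepals and 4 in the silencing libraries. In the same order it called 4.13%, 2.05%, 0.523%, 0.580%, 21.6%, 1.05%, 17.9% and 0.696% of all features. Without libraries under 19000 features the counts were 32 at S12, 6 at S10, 2 for the change between S10 and S12, 71 in stamens, 9 in carpels, 47 in dorsal sepals and 84 in non-spurred sepals, beside 5.53%, 1.67%, 0.352%, 35.99%, 3.56%, 21.7% and 44.3% of all features. With the compared groups alone sharing the spread they were 1 at S10, 1 for that change, 0 in carpels and 41 in dorsal sepals, beside 1.13%, 0.184%, 0.292% and 18.1% of all features. RLE scaling gave 4 at S10 and 2 in carpels, beside 0.618% and 0.0785% of all features. A replicate block gave 6 at S10, 2 for the change between S10 and S12 and 22 at S12, where numbers do not pair all libraries. In the same order it called 1.80%, 0.206% and 3.93% of all features, and no other count moved beyond 1.5 times. The cause was not tested. Leaving out a replicate gave 5 to 19 called members at S12, 0 to 3 at S10 and 0 to 1 for the change between S10 and S12. All features called in these were 0.782% to 1.37%, 0.249% to 0.445% and 0% to 0.0461%. It gave 67 to 82 in lateral petals, 12 to 20 in stamens and 0 to 1 in carpels, beside 25.6% to 33.1%, 7.78% to 11.8% and 0% to 0.0602% of features. In dorsal sepals it gave 7 to 13 and in non-spurred sepals 36 to 59, beside 6.65% to 7.62% and 21.1% to 25.9% of features. At S9 and in the silencing libraries such a fit leaves 1 library in a group, and no count is given. The rule itself was met by 210 to 271 features on leaving out an S16 petal library, 237 with means, 214 with 0.5 added, 262 with TMM scaling and 235 without libraries under 19000 features, and these kept 154 to 192 of the 200 members. Depth limits low levels in lateral petals, where 3 counts amount to up to 0.525 CPM at S16.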
